A study of Homo sapiens with 8 samples.

Results

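The genes described here are the well expressed members of the ZNF series of human zinc finger genes, measured on 8 arrays of A549 and PC9 cells with or without added EN2. Of 454 genes whose symbol is ZNF followed by digits, 171 had a brightest probe set with a mean of at least 7.0 on the log2 scale over the 8 arrays, out of 18244 genes measured. A further 278 had a lower mean, and 5 neighbours of a chromosome 19 cluster (ZNF57, ZNF77, ZNF554, ZNF555 and ZNF556) were left out by name. All 5 had means under 7.0, so leaving them out removed no gene that the level would have kept. The genes were thus chosen by their mean level over all 8 arrays, those with EN2 included. A rise with EN2 raised this mean and could carry a gene near the limit over it. ZNF548 (mean 7.02) and ZNF202 lay near the limit and read higher with EN2 in A549. The level in each line also entered through the mean: 20 genes were under 7.0 in A549 and 13 in PC9 and were included through their level in the other line. Just inside the limit lay ZNF76 (mean 7.004), ZNF239 (7.008), ZNF202 (7.0085) and ZNF764 (7.015), and just outside it ZNF26 (6.994), ZNF367 (6.991), ZNF784 (6.981) and ZNF17 (6.956).

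Most ZNF genes encode proteins with arrays of C2H2 zinc fingers, short folds held by a zinc ion that read DNA bases and can also bind RNA or protein. Many carry a KRAB domain as well, which recruits the corepressor TRIM28 and, through it, the histone methyltransferase SETDB1 and heterochromatin proteins, and such proteins silence transposable elements and imprinted regions. The genes multiplied by tandem duplication and lie in clusters, above all on chromosome 19, so close relatives are often neighbours. A few genes carry a ZNF symbol without being of this type, such as ZNF185, which encodes a LIM domain protein of the actin cytoskeleton.

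A549 and PC9 are established human lung adenocarcinoma lines, grown in F-12K and in DMEM respectively. Each was infected with a retrovirus carrying EN2, an engrailed homeobox transcription factor gene, or with the Neo vector alone (NC in the labels), and stable cells were selected with a drug, so all 4 groups carried a vector and went through selection. Each group had 2 arrays, total RNA was measured as biotin-labelled cDNA, and the labels do not say that the arrays of a group came from separate cultures. Each p-value therefore reflects only how far these arrays differ, and that spread may be technical.

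EN2 itself read 7.71 and 7.62 in A549 cells with EN2 and 6.48 and 6.57 with vector, and 6.24 and 6.39 in the PC9 EN2 arrays against 5.86 and 5.78. The limma adjusted p was 0.00028 in A549 and 0.0801 in PC9, so only the A549 pair passed on this gene. All 7 epithelial markers were above the spike-in background in both lines, while of 3 leukocyte genes PTPRC lay below it in both lines and CD14 and CD3E above it in both. With EN2, 4 of the 7 epithelial markers were called lower in A549 and none passed in PC9, where 1.15% and 0.219% of all genes were called lower. KRT18 changed least of the 4 (log2 change −0.20, limma adjusted p = 0.0476). The 18S rRNA control signal was 11.66 and 12.12 in the A549 EN2 arrays and 12.44 and 12.74 in the A549 vector arrays, and 6.05 to 6.10 on all PC9 arrays. The number of arrays limits the precision, and fewer cells of a kind cannot be told apart from less RNA per cell.

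The 171 genes ranged from 5.77 to 12.08 on single arrays, and lay above the spike-in background (4.43 in A549, 3.94 in PC9) on every array. Means were under 8 for 94 genes, 8 to 9 for 48 and at least 9 for 29, and the median was 7.81. The strongest signals came from ZNF207, which encodes a kinetochore and spindle protein (mean 11.56), ZNF146, a protein made almost wholly of zinc fingers (11.22), and ZNF664 (10.98). ZNF706 (10.89), ZNF217, a corepressor-associated oncogene (10.42), ZNF281 (10.22), ZNF410, an activator of the chromatin remodeller gene CHD4 (10.10), and ZNF770 (10.04) followed. Signals of different probe sets depend on their probes, so this order describes signal and is no order of transcript number. Replicate arrays differed little, with a median SD of 0.067 over genes and groups. Chromosome 19 held 66 of the 171 genes (38.6%), against 154 of the 278 dimmer ZNF genes (55.4%), and chromosomes 16 and 7 followed with 18 and 12.

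The first comparison asked which ZNF genes changed with EN2 in A549. Of the 171, 8 rose (limma, Benjamini-Hochberg adjusted p under 0.05 over 18244 genes), none fell and 163 did not pass, where 1.57% of all genes were called higher and 1.15% lower. Without adjustment, 46 had p under 0.05 on the higher side and 5 on the lower side, against 9.87% and 7.54% of all genes. The median log2 change of the 171 was 0.11, with 133 (77.8%) above 0, while the median was −0.0015 over all genes and 0.0028 over the 8742 genes with a mean of at least 7.0, of which 50.8% were above 0. Most ZNF genes thus read slightly higher in the EN2 arrays, by less than the change that the test could call.

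ZNF462, which encodes a zinc finger protein of chromatin in development, had the largest change. It read 8.73 and 8.34 in the A549 EN2 arrays and 7.74 and 7.70 in the vector arrays, with no overlap. It rose 1.76-fold (log2 change 0.82 ± 0.12 SE, adjusted p = 0.00857 by limma), and its other probe set changed by 0.86. ZNF548, a KRAB zinc finger gene, read 6.63 and 6.53 with EN2 and 5.97 and 5.77 with vector. Its rise was 1.63-fold (0.71 ± 0.0999, limma adjusted p = 0.00717), and its other probe set, with a mean of 4.88, changed by 0.18. ZNF697 read 8.56 and 8.24 with EN2 and 7.79 and 7.74 with vector, a rise of 1.56-fold (limma adjusted p = 0.0176). Its other probe sets, with means of 5.69 and 3.95, changed by −0.020 and −0.052.

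ZNF529, a KRAB zinc finger gene, read 8.19 and 8.17 with EN2 and 7.79 and 7.49 with vector (log2 change 0.54, limma adjusted p = 0.037), and both its other probe sets were dim. ZNF84, also of the KRAB type, read 8.23 and 8.16 with EN2 against 7.85 and 7.55 (0.50, adjusted p = 0.0442). ZNF331, an imprinted KRAB zinc finger gene, read 7.71 and 7.63 against 7.24 and 7.17 (0.46, adjusted p = 0.0155). In each of these 3 genes the vector arrays lay below both EN2 arrays. All 4 ZNF331 probe sets were higher with EN2, by 0.24 to 0.51. ZNF586 read 7.68 and 7.72 against 7.39 and 7.23 (0.39, adjusted p = 0.0386), and ZNF480 read 9.15 and 9.18 against 8.83 and 8.87 (0.32, adjusted p = 0.0448). All probe sets of both genes were higher with EN2. The plot of the called genes by array shows that in PC9 only ZNF462 had both EN2 arrays above both vector arrays.

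**Figure D1:**
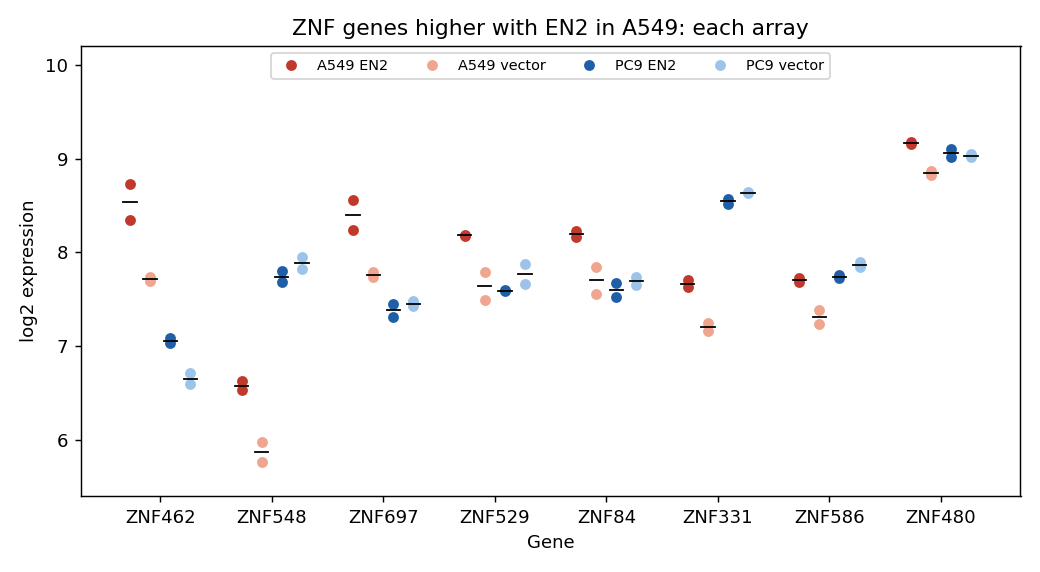
Log2 expression of the 8 ZNF genes that rose with EN2 in A549, with 1 point per array in 4 groups of 2 and a bar at each group mean. The A549 EN2 arrays lie above the A549 vector arrays in all 8 genes, while in PC9 the EN2 arrays of ZNF462 alone lie clearly above, and those of ZNF548, ZNF529, ZNF331 and ZNF586 lie below their vector arrays.

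The promoters of the genes that rose are printed so that their sequences can be read beside the values. RefSeq promoter entries of build GRCh38.p14 matched 150 of the 171 genes and 6 of the 8 called genes; ZNF462 and ZNF480 were not matched. The 250 bases before the start of all 6 are given 5′ to 3′ on the strand of the gene, and capitals mark matches to any of the 7 patterns described after them.
ZNF548, chr19:57389604-57389853, plus strand: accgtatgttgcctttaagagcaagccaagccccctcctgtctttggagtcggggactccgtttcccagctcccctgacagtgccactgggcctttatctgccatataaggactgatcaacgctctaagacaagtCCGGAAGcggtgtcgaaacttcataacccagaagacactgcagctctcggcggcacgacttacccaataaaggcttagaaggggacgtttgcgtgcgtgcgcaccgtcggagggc
ZNF697, chr1:119648267-119648516, minus strand: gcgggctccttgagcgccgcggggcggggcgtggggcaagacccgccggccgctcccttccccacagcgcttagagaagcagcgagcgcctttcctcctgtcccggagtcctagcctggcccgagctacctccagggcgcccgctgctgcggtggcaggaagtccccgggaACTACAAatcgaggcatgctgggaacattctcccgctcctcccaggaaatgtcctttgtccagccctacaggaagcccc
ZNF529, chr19:36605258-36605507, minus strand: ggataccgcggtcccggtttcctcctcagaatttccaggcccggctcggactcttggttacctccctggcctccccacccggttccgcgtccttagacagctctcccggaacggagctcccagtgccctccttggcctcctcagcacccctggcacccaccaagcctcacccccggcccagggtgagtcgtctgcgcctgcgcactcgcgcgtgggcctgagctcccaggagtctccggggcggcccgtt
ZNF84, chr12:133037259-133037508, plus strand: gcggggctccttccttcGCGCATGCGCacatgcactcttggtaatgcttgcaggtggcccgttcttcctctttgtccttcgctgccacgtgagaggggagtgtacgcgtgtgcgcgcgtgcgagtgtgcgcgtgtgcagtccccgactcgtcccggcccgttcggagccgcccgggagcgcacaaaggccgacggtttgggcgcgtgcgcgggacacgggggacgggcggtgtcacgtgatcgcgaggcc
ZNF331, chr19:53520764-53521013, plus strand: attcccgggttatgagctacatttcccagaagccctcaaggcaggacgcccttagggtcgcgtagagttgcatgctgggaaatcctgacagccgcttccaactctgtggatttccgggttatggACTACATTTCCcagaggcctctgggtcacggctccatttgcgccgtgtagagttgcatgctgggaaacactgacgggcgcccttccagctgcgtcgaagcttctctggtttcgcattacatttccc
ZNF586, chr19:57769426-57769675, plus strand: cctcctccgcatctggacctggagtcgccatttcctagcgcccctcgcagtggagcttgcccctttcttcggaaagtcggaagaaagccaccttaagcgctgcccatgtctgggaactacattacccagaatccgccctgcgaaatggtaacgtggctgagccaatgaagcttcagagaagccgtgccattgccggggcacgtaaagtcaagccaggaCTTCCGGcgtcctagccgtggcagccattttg

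Each pattern was searched on both strands, and the patterns were chosen after the EN2 changes were known. The ETS core CCGGAAG, found in ZNF548 and, as its reverse complement, in ZNF586, was in 49 of the 150 ZNF promoters (32.7%), in 17.95% of 7348 promoters of genes with a mean of at least 7.0, in 29.1% of 230 promoters of dimmer ZNF genes and in 8.82% of all 27305 promoters. The pattern for ZNF143, itself one of the 171 genes, was searched in 2 versions. The first, ACTACAA, was found in ZNF697 and was in 14 of the 150 ZNF promoters (9.33%), against 3.93% of genes with a mean of at least 7.0, 2.17% of dimmer ZNF genes and 2.64% of all promoters. The second, ACTACA and TTCC with any 1 base between them, was written after the promoters of the called genes had been read, the ZNF331 promoter that holds it among them. It was also in 14 (9.33%), against 1.89%, 7.83% and 0.908%. The choice of version therefore moved the match from ZNF697 to ZNF331 and reversed the place of the dimmer ZNF genes, and neither share supports a statement about ZNF143.

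The NRF1 site, GCGCA followed at once by TGCGC, was found in ZNF84 and was in 2.67% of the ZNF promoters, against 2.22% of genes with a mean of at least 7.0 and 1.13% of all promoters. The CREB site TGACGTCA was in 5.33%, against 3.28% and 1.77%, and the YY1 core AAGATGG in 3.33%, against 3.55% and 3.77%. The homeodomain core TAATTA, of the type that engrailed proteins bind, was in 2 of the 150 (1.33%), against 1.48% and 4.49%, and in none of the 6 printed. ZNF529 held none of the 7 patterns. In 5 of the 150 promoters a match of the first ZNF143 pattern shared bases with a match of another pattern. A match describes letters in this window and shows no binding.

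The A549 calls, of ZNF genes and of all genes alike, depended on single arrays, which also differed in 18S rRNA signal. Without vector replicate 2, the array of highest signal, none of the 171 was called, and without EN2 replicate 1, the array of lowest signal, 1 was. Without EN2 replicate 2 there were 5 and without vector replicate 1 there were 17. Leaving out a PC9 array, which enters only the shared spread, gave 4 or 5. With 18S rRNA fitted as a covariate none was called, and calls higher over all genes went from 287 to 5. The median SE of the 171 went from 0.091 to 0.178. Both A549 EN2 arrays had less 18S signal than both vector arrays, so this fit cannot separate 18S from EN2. The log2 change with the covariate was 0.37 for ZNF462, 0.45 for ZNF548, 0.26 for ZNF697 and 0.29 for ZNF529. It was 0.21 for ZNF84, 0.32 for ZNF331, 0.33 for ZNF586 and 0.37 for ZNF480 (limma adjusted p = 0.715 or above for all 8). Over the alternatives the adjusted p ran from 0.00247 to 0.867 for ZNF462 and from 0.00188 to 0.811 for ZNF548. With the covariate the median change of the 171 was 0.034, with 100 above 0, and without both outer arrays it was 0.057, with 113 above 0 and none called.

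**Figure D2:**
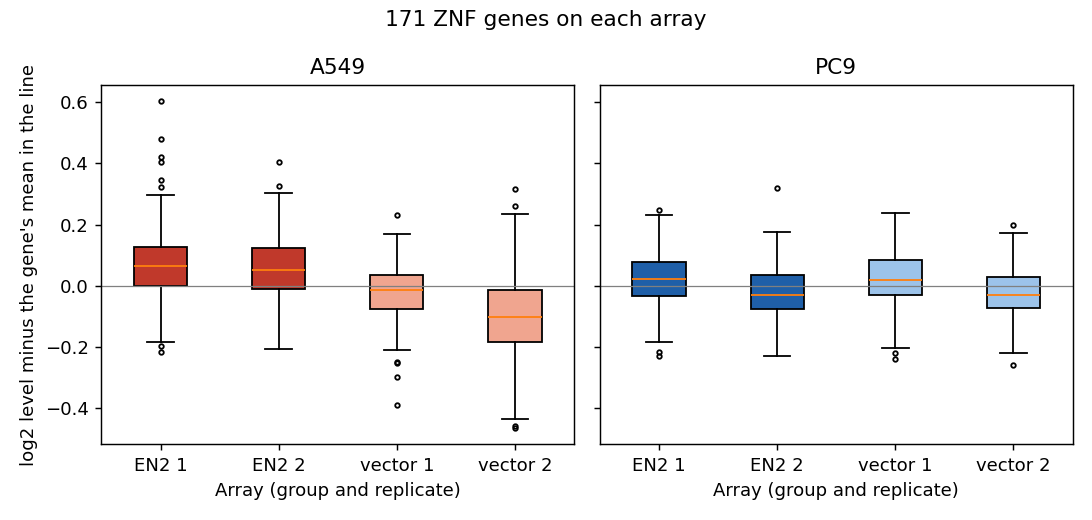
Log2 level of the 171 ZNF genes on each array minus the gene's mean in its line. Boxes span the quartiles, the line is the median, whiskers reach 1.5 box lengths and points lie beyond. The A549 medians run from 0.065 and 0.052 (EN2) to −0.014 and −0.0999 (vector), and the PC9 medians of both groups lie within 0.031 of 0.

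By array, the ZNF genes followed the 18S rRNA signal in opposite order. Their median deviation from the line mean was 0.065 in EN2 replicate 1, 0.052 in EN2 replicate 2, −0.014 in vector replicate 1 and −0.0999 in vector replicate 2, while the 18S signal went up in that order. Over all 18244 genes the same deviations lay between −0.0047 and 0.0031. The part of the 18S signal in the ZNF result was not tested beyond the fits above. The groups did not overlap in 84 genes on the higher side (49.1%) and in 14 on the lower side (8.19%), against 24.1% and 23.5% of all genes.

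On the lower side no gene passed in A549. ZNF185, the LIM domain gene, came nearest, with 6.35 and 6.34 in the EN2 arrays against 6.71 and 6.78 in the vector arrays (log2 change −0.40, limma adjusted p = 0.0519). Its groups did not overlap, and all 4 probe sets were lower. It was called in 6 of 18 alternatives, over which its adjusted p ran from 0.0362 to 0.877. ZNF576 (−0.32, adjusted p = 0.196), ZNF428 (−0.26, adjusted p = 0.231) and ZNF629 (−0.23, adjusted p = 0.246) followed in order of p.

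The same comparison in PC9 asked whether ZNF genes changed with EN2 in this line. By limma none of the 171 passed in either direction, where 0.148% of all genes were called higher and 0.219% lower. Without adjustment 4 had p under 0.05 on the higher side and 5 on the lower side, against 3.55% and 3.2% of all genes. The median change was −0.00088 with 83 genes above 0, against 0.0040 over all genes. ZNF462 had the smallest p here too: it read 7.08 and 7.03 in the PC9 EN2 arrays and 6.71 and 6.60 in the vector arrays (log2 change 0.40, adjusted p = 0.398). Its groups did not overlap, and the other ZNF462 probe set changed by 0.49.

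The next genes by p on the higher side in PC9 were ZNF641 (0.30, limma adjusted p = 0.404), ZNF503 (0.28, adjusted p = 0.482) and ZNF532 (0.23, adjusted p = 0.719). ZNF503, which encodes a developmental transcriptional corepressor, read 9.82 on both PC9 EN2 arrays against 9.47 and 9.60. On the lower side were ZNF395 (−0.28, adjusted p = 0.453), ZNF416 (−0.29, adjusted p = 0.592), ZNF227 (−0.20, adjusted p = 0.661) and ZNF266 (−0.22, adjusted p = 0.711). ZNF395 read 8.20 and 8.24 with EN2 against 8.43 and 8.55, without overlap. The groups did not overlap in 29 of the 171 on the higher side (17.0%) and in 26 on the lower side (15.2%), near the 17.7% and 15.2% of all genes.

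The difference of the EN2 change between the lines was tested next. ZNF548 alone passed, with a change of 0.71 in A549 and −0.15 in PC9, a difference of 0.86 ± 0.14 SE (limma adjusted p = 0.0319), where 0.46% of all genes were called higher and 0.323% lower. Its mean of 7.02 was just above the limit with the EN2 arrays counted, so the A549 rise helped to include this gene. In PC9 it read 7.80 and 7.68 with EN2 and 7.95 and 7.83 with vector, with both EN2 arrays below both vector arrays. Its call ended in 10 of the 17 alternatives, including without A549 EN2 replicate 1 (0.81), without A549 vector replicate 2 (0.75) and with 18S rRNA fitted as a covariate (0.60), and the adjusted p ran up to 0.597. ZNF331 (0.55, adjusted p = 0.0597), ZNF697 (0.71, adjusted p = 0.0933) and ZNF529 (0.71, adjusted p = 0.0984) did not pass. On the other side ZNF185 (−0.53, adjusted p = 0.137), ZNF629 (−0.32, adjusted p = 0.376), ZNF576 (−0.39, adjusted p = 0.395) and ZNF330 (−0.22, adjusted p = 0.429) did not pass either. Without adjustment 33 of the 171 had p under 0.05 on the higher side and 3 on the lower side, against 6.37% and 5.55% of all genes. The median difference was 0.11 for the 171 and −0.0031 over all genes.

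**Figure D3:**
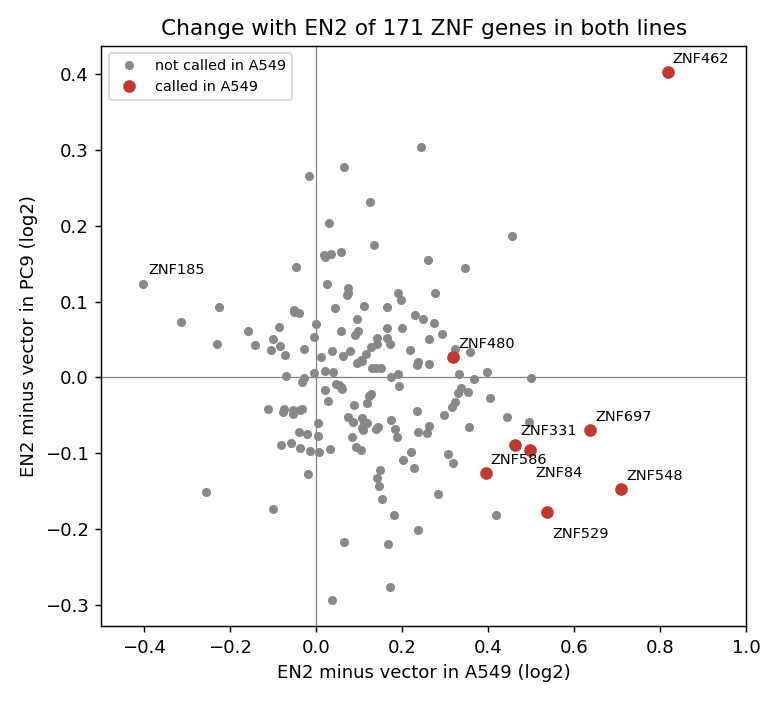
Log2 change with EN2 in A549 (x axis) and in PC9 (y axis), 1 point for each of the 171 ZNF genes, with the 8 genes called in A549 in red. Most points lie right of 0 on the A549 axis (133 of 171) and spread evenly about 0 on the PC9 axis (83 above 0), and ZNF462 is the red point high on both.

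Neighbouring ZNF genes were compared by their order among protein-coding genes, taking runs of at least 4 of the 171 in which each lay within 3 places of the next. These runs were picked out after the values were known and are described without a test. On chromosome 12, ZNF605, ZNF84, ZNF140 and ZNF268 all read higher with EN2 in A549, by 0.37 to 0.50, and between −0.096 and −0.0026 in PC9. Each of the 4 had both A549 EN2 arrays above both vector arrays, as had 49.1% of the 171 and 24.1% of all genes. ZNF140, for example, read 8.70 and 8.64 against 8.41 and 8.20. ZNF84 passed the test, and the other 3 had limma adjusted p of 0.0717 to 0.126.

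On chromosome 19, ZNF845, ZNF765, ZNF761 and ZNF331 changed by 0.23 to 0.49 in A549 and by −0.12 to −0.014 in PC9. ZNF264, ZNF805, ZNF304 and ZNF548 changed by 0.22 to 0.71 in A549, with a median of 0.45, and by −0.15 to 0.0065 in PC9. The longest run, 10 genes from ZNF419 to ZNF587, had 9 above 0 in A549 (median 0.15) and 2 above 0 in PC9 (median −0.13). A run from ZNF837 to ZNF446 did not share this: 1 of its 4 genes was above 0 in A549 and the median was −0.038. Over all chromosome 19 genes of the set the median was 0.15 in A549 and −0.059 in PC9, against 0.11 and 0.021 for the 105 on other chromosomes. Probe sets of tandem relatives can bind each other's transcripts, and 51 of the 171 genes rested on a probe set of a type that may bind several transcripts, ZNF548 and ZNF331 among them.

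**Figure D4:**
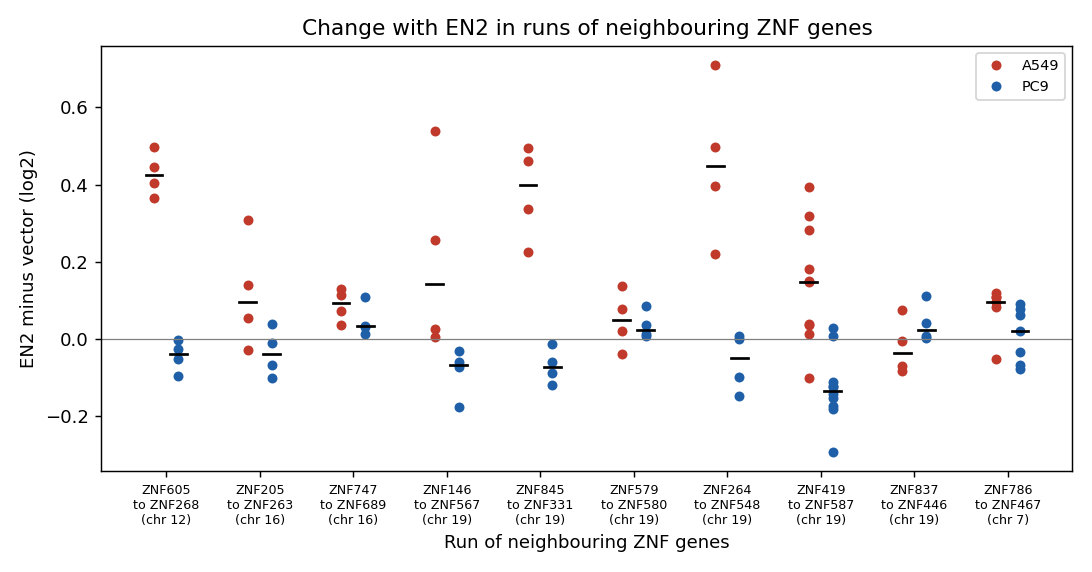
Log2 change with EN2 in A549 (red) and PC9 (blue) for 10 runs of neighbouring ZNF genes, 1 point per gene and a bar at each median. All genes of the runs ZNF605 to ZNF268, ZNF845 to ZNF331 and ZNF264 to ZNF548 lie above 0 in A549, at medians of 0.42, 0.40 and 0.45, and near or below 0 in PC9.

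Among the listed genes with known roles, none passed in either line with EN2. Of 7 well expressed partners of corepressor and chromatin complexes, all 7 read higher in A549 (median 0.12) and 5 in PC9 (median 0.17). ZNF516, ZNF687 and ZNF703, on the same list but under the level limit, read lower in both lines. Their changes were −0.023, −0.033 and −0.18 in A549 and −0.059, −0.031 and −0.098 in PC9. Of the 171, 77.8% read higher in A549 and 48.5% in PC9. Limma's unadjusted p was under 0.05 for 2 of the 7 in each line, on the higher side. Over all genes that share was 9.87% in A549 and 3.55% in PC9, and of the 171 it held for 46 and 4. ZNF827, which recruits a histone deacetylase complex to telomeres, read 8.06 and 7.67 with EN2 and 7.39 and 7.43 with vector in A549 (log2 change 0.45, adjusted p = 0.0845). ZNF644, a partner of the histone methyltransferases G9a and GLP, read 8.89 and 8.98 against 8.76 and 8.403 (0.35, adjusted p = 0.128). ZNF592 (0.22), ZNF532 (0.12), ZNF217 (0.092), ZNF503 (0.065) and ZNF131 (0.057) had smaller values in A549, and the spread of their arrays overlapped in ZNF217, ZNF503 and ZNF131.

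Of 9 well expressed promoter-binding and other transcription factors, 6 read higher in A549 and 7 in PC9. Under the level limit on this list, ZNF423 changed by 0.20 in A549 and −0.16 in PC9. ZNF521 changed by −0.042 and 0.10, and ZNF750 by −0.082 and −0.040. ZNF263 read 10.12 and 9.83 with EN2 against 9.84 and 9.49 in A549 (0.31, limma adjusted p = 0.243), so its groups overlapped. ZNF143, a factor of promoters and chromatin loops, changed by 0.23 in A549 and 0.082 in PC9, and its relative ZNF76 by −0.10 and 0.036. Of 9 factors of RNA, ribosomes and mitosis, 7 read higher in A549 (median 0.088) and 4 in PC9 (median −0.0091). ZNF638, a splicing-related nuclear protein, came nearest, with 9.85 and 9.96 against 9.63 and 9.67 (0.26, adjusted p = 0.0886). ZNF598, the ubiquitin ligase of collided ribosomes, changed by 0.088 and −0.036, and the SUMO ligase gene ZNF451 by 0.056 and 0.061. In A549 1 of these last 2 genes had both EN2 arrays above both vector arrays, as had 24.1% of all genes. In PC9 the groups of both genes overlapped.

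KRAB repressors with known targets numbered 4 above the level limit, and all 4 had both A549 EN2 arrays above both vector arrays, as had 49.1% of the 171 and 24.1% of all genes. One of them, ZNF202, lay just above the limit (mean 7.0085) with its EN2 arrays counted. Under the limit on this list, ZNF10 (0.15), ZNF445 (0.16) and ZNF431 (0.021) read higher in A549. ZNF91 (−0.0061), ZNF93 (−0.021) and ZNF382 (−0.034) read lower. ZNF202, a repressor of lipid metabolism genes, changed by 0.30 (limma adjusted p = 0.12), and ZNF274, which brings SETDB1 to the zinc finger genes themselves, by 0.29 (adjusted p = 0.0879). ZNF350, a BRCA1 partner, changed by 0.12 and ZNF746, a repressor of the PGC-1alpha gene, by 0.12. In PC9 the 4 lay between −0.050 and 0.057. Of 19 partners of KRAB zinc fingers, none passed in either line by limma, with 1 higher and 1 lower at unadjusted p under 0.05 in A549 and none in PC9. TRIM28 changed by 0.15 in A549 and −0.080 in PC9, SETDB1 by 0.16 and 0.011, and the heterochromatin protein gene CBX5 by 0.024 and 0.053.

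Other zinc finger genes gave a scale for these values. In A549 the median change was 0.040 for the 278 dimmer ZNF genes, of which 4 rose and 1 fell, where 1.57% and 1.15% of all genes did. At any mean level it was 0.11 for 36 ZBTB genes, 0.11 for 17 ZSCAN genes, 0.035 for 7 ZKSCAN genes and 0.018 for 18 ZFP genes. With a mean of at least 7.0, as in the 171, it was 0.13 for 20 ZBTB genes, of which 85% were above 0. At that level it was −0.039 for 7 ZFP genes, 0.12 for 2 ZSCAN genes and 0.095 for 2 ZKSCAN genes. By limma none of these 4 families had a called gene, and 4, 2, 0 and 3 of their genes were higher at unadjusted p under 0.05, with 1 ZBTB gene lower, against 9.87% and 7.54% of all genes. The difference between these families was not tested. Of the 171, 136 had more than 1 probe set, and in 69 (50.7%) all probe sets had the same sign in A549. The 344 other probe sets had a median of 0.073 in A549, and the 120 of them with a mean of at least 7.0 a median of 0.11, with 70.0% above 0.

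The last comparison set the vector controls of the lines against each other. Of the 171, 61 were higher and 74 lower in A549 than in PC9, and 36 did not pass, where 46% of all genes were called higher and 29.7% lower. As shares these were 35.7% and 43.3% of the ZNF genes, near the 35.7% and 42.8% of the 8742 genes with a mean of at least 7.0. The vector arrays did not overlap in 64 on the higher side and 81 on the lower side, against 53.4% and 35% of all genes. These were 37.4% and 47.4% of the ZNF genes, and 41.1% and 48.5% of the genes with a mean of at least 7.0. The median difference, A549 minus PC9, was −0.095 for the ZNF genes, 0.17 over all genes and −0.074 over the 8742 genes with a mean of at least 7.0. How the scales of A549 and PC9 relate is not known. Centring each array on its median shifted all genes to a median of −0.068 and gave 34 higher and 94 lower. Quantile normalisation over all arrays gave 56 and 77. The mean of all probe sets gave 74 higher and 65 lower, with a median of 0.045 for the ZNF genes and 0.22 over all genes. Which side was larger thus depended on the choice of probe sets. Genes under 7.0 in 1 line had to differ to be included, so their differences are given as a description, with no test. Of the 138 genes at or above 7.0 in both lines, 48 were higher and 56 lower.

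ZNF304, a KRAB repressor known for silencing the INK4-ARF locus, differed most. It read 5.83 and 5.86 in the A549 vector arrays and 8.46 and 8.37 in PC9, 5.92-fold lower in A549 (log2 difference −2.57). ZNF22 read 7.76 and 7.68 in A549 and 9.95 and 9.91 in PC9 (−2.21). ZNF761 read 6.35 and 6.02 against 8.42 and 8.27 (−2.16), and ZNF185 read 6.71 and 6.78 against 8.87 and 8.92 (−2.15). Also lower in A549 were ZNF548 (−2.02), ZNF606 (−1.94), ZNF350 (−1.81), ZNF581 (−1.72), ZNF765 (−1.60) and ZNF845 (−1.54). Of these 10, ZNF304, ZNF761, ZNF185, ZNF548, ZNF606, ZNF350 and ZNF845 had A549 means under 7.0 and were included through PC9. For ZNF22, ZNF581 and ZNF765, above the limit in both lines, the limma adjusted p was at most 2.78e-06.

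On the higher side ZNF830, a nuclear protein gene of DNA replication and RNA splicing, read 8.09 and 8.13 in A549 against 6.40 and 6.41 in PC9, 3.27-fold higher (1.71). ZNF428 read 8.53 and 8.54 against 6.85 and 7.05 (1.59), and ZNF567 read 7.89 and 8.01 against 6.49 and 6.30 (1.56). ZNF609 (1.31), ZNF226 (1.31), ZNF146 (1.11), ZNF517 (1.09), ZNF462 (1.06), ZNF451 (1.05) and ZNF319 (1.04) were higher as well. Of these 10, ZNF830, ZNF428, ZNF567, ZNF517, ZNF462 and ZNF319 had PC9 means under 7.0 and were included through A549. The groups of the 20 named genes did not overlap, and each kept its sign in the 17 alternatives run. At least 2-fold, 11 ZNF genes were higher (6.43%) and 26 lower (15.2%) in A549, against 11.1% and 13.7% of genes with a mean of at least 7.0 and 12.8% and 10.1% of all genes. Of these, 6 and 12 were under the limit in the lower line, and among the 138 genes above it in both lines the counts were 5 and 14.

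**Figure D5:**
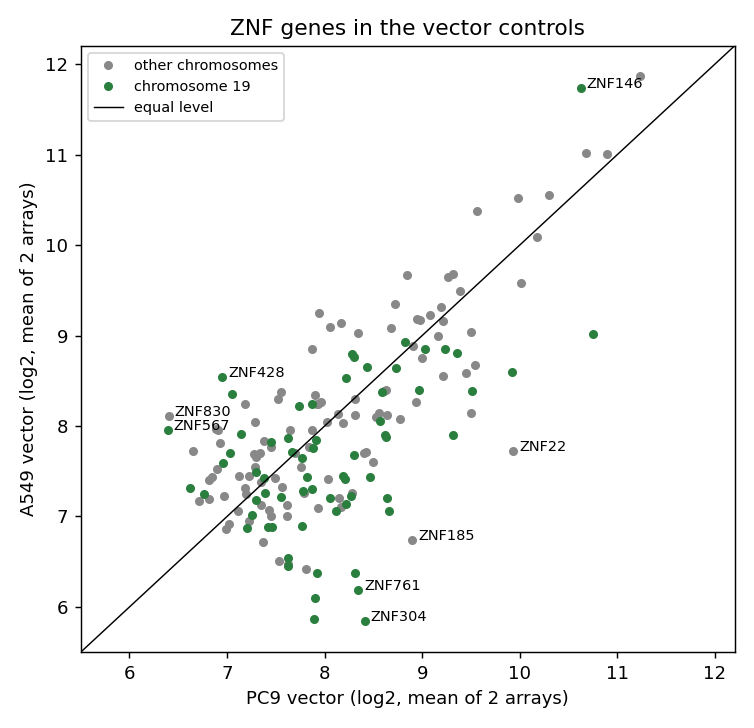
Mean log2 level of each of the 171 ZNF genes in the PC9 vector arrays (x axis) and the A549 vector arrays (y axis), 2 arrays each, with chromosome 19 genes in green and a line at equal level. More green points lie under the line than over it (45 of 66), and ZNF304, ZNF761, ZNF185 and ZNF22 lie farthest below.

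Of the 66 chromosome 19 genes, 16 were higher and 39 lower in A549, with a median of −0.39. On other chromosomes 45 and 35 of the 105 were, with a median of 0.036. Over all genes 46% were higher and 29.7% lower, and of genes with a mean of at least 7.0 35.7% were higher and 42.8% lower. The 66 include ZNF304, ZNF761, ZNF548, ZNF606, ZNF350 and ZNF845, included through PC9, and ZNF428 and ZNF567, included through A549. These counts, and the medians of runs that hold such genes, are therefore a description with no test. In the runs described above, all 4 genes from ZNF845 to ZNF331 and all 4 from ZNF264 to ZNF548 were lower in A549, at medians of −1.57 and −1.40. So were all 4 from ZNF579 to ZNF580 (−1.04) and 8 of the 10 from ZNF419 to ZNF587 (−0.47). The run from ZNF146 to ZNF567 went the other way, with 3 of 4 higher in A549 and a median of 0.89. Of the 19 partners of KRAB zinc fingers, 14 were lower and 2 higher in A549 by limma, where 29.7% and 46% of all genes and 42.8% and 35.7% of those with a mean of at least 7.0 were. TRIM28 differed by −1.30 and the histone deacetylase gene HDAC1 by −1.91 on the log2 scale.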

How the data were processed

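RNA of 8 samples was measured on single-colour arrays. The deposited values were log2 values, which the authors made with RMA according to the submitters' processing notes; neither its version nor whether all arrays were normalised together is given in the sources used here. Of 49495 probe sets, 45284 carried 1 symbol, updated by Entrez identifier (45214 matched). A gene was represented by its probe set of highest mean, with no filter. Background was the 95th percentile of 100 ERCC probe sets over the arrays of a line. The test was that of limma 3.58.1 (R 4.3.3; a mean per group, eBayes with an intensity trend, 4 residual degrees of freedom, two-sided), adjusted by Benjamini-Hochberg over 18244 genes and called under 0.05. The fit was tested on simulated data. With 2 arrays against 2, exact permutation gives no p below 0.333. Named genes were the called genes whose groups did not overlap or the 4 of smallest p per direction, the 10 highest and 10 lowest line differences, the 8 brightest, the 4 on each side of the level limit and the role lists. The members and lists were chosen with earlier results of these data known. The promoter patterns (1 of them after the promoters were read), the gene runs, the splits by chromosome 19 and by the level in each line, the class of genes with a mean of at least 7.0 and the summary of other probe sets were chosen after the values were seen and carry no test. Alternatives were other prior variances, brighter genes only, quantile normalisation, median centring, averaged probe sets, a line's arrays alone, the replicate number as a block, 18S rRNA adjustments and leaving out each array. A group left with 1 array takes its spread from the other groups. A planned search for KRAB boxes in protein sequences was not run.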

Additional observations from a re-analysis of the deposited data

Results flagged for a closer look

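ZNF548 differed between the lines in its change with EN2, by a test of the difference itself: 0.71 in A549 minus −0.15 in PC9 gives 0.86 on the log2 scale (limma adjusted p = 0.0319). Both A549 EN2 arrays were above both vector arrays, and the call ended in 10 of 17 alternatives. The gene's mean of 7.02 was just above the level limit with the EN2 arrays counted, so the A549 rise helped to include it.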

How the results depend on the processing

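The count of ZNF genes higher with EN2 in A549, 8, was 3 with the mean of all probe sets, 0 on the A549 arrays alone, 0 with 18S rRNA fitted as a covariate and 0 when both A549 arrays outermost in 18S rRNA were dropped; over the fits that leave out 1 array it ran from 0 to 17. The count lower, 0, was 1 (ZNF185) with a robust prior variance, with the brighter genes only and with quantile normalisation, and 0 to 1 with 1 array left out. The count for the difference between the lines, 1, was 0 with the mean of all probe sets, 0 with the 18S covariate, 0 without the outer 18S arrays and 0 to 2 with 1 array left out. With the replicate number as a block it was 3 for the difference, and 16 higher and 1 lower in A549. Calls higher in A549 over all genes then went from 287 to 538. Deviations of same-numbered arrays correlated at 0.349 in A549 and 0.0656 in PC9. The A549 value was the largest among the pairs of groups, the others running from −0.0818 to 0.152. The labels do not say that the numbers pair arrays, and the main fit left them out. Any effect shared by same-numbered A549 arrays therefore stayed in its spread. The count higher in the A549 vector controls, 61, was 34 with median centring. The other counts of that comparison and all PC9 counts stayed within 1.5 times. With the mean of all probe sets, however, 74 were higher and 65 lower in the vector controls, so the larger side changed. ZNF576 went from −0.32 to 0.013 with the 18S covariate in A549; the cause was not tested. Of 216 refits of named A549 genes, 65 lost and 6 gained a call. The number of ZNF genes, 171, was 171 with symbols as annotated, 214 at a level of 6.5 and 114 at 7.5.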
